A study of Mus musculus with 33 samples.

Results

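Imprinted genes outside the Dlk1-Dio3 domain were followed through the reprogramming of mouse embryonic fibroblasts (MEFs) towards induced pluripotent stem (iPS) cells. The set is a named list of 45 genes in 18 imprinted loci on 8 chromosomes, matched by Ensembl ID and symbol to count tables of 37583 genes. The rule that names them uses no measured value, but the list was chosen with earlier results of these data known. Shares of the set beside those of all genes are therefore descriptions. Of the 45 genes, 42 were found in the tables and 40 passed the filter on low counts, so that they were tested among 17326 genes. Calcr and Klf14 did not pass the filter, and Snrpn, Kcnq1ot1 and Peg13 were not analysed here. Among the 42 genes, 20 are known to be expressed from the paternal and 22 from the maternal chromosome, in at least some tissues.

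Poly-A RNA had been sequenced in 33 libraries, 3 in each of 11 groups, all of strain 129SV/Jae/C57BL6J. The reprogramming groups, grown in ES media with dox and AA as the labels write them, were harvested at days 3, 6, 9 and 12 (d3 to d12) and at the iPS stage, and sorted by flow cytometry into SSEA1+ and SSEA1- cells. SSEA1 is a carbohydrate antigen of the surface of mouse pluripotent cells. The MEF group was grown in MEF media, so medium, dox, AA and time differ together between every later group and MEFs and cannot be told apart. The labels give no genotype beyond the strain, name no transgene on which dox would act, and do not say whether replicates were separate cultures or animals, so that the p-values speak of the spread between libraries alone, which may be technical.

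Imprinted genes are transcribed mainly from the chromosome of one parent, because a control region near them carries DNA methylation set in the germ line of that parent. Most imprinted genes lie in clusters, in which a long non-coding RNA or an insulator governs several coding genes, and many of them act on fetal and placental growth. The count tables hold one value per gene and do not separate the parental alleles, so they show how much RNA a gene gave and not from which chromosome.

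Some of these genes share a start region or carry a microRNA, and their sequences are shown so that the levels given further on can be read against them. The promoter windows below come from RefSeq (GRCm38.p6) and run 250 bases before to 50 bases after the start of the gene, 5′ to 3′ on the gene's strand. Peg3 (chr7:6730370-6730669, minus strand) and Usp29 (chr7:6730333-6730632, plus strand) start back to back, and their windows share 263 bases. Mest (chr6:30737800-30738099, plus strand) and Nnat (chr2:157559828-157560127, plus strand) hold the hexamer TGCCGC, which the imprint-keeping zinc finger protein ZFP57 binds when it is methylated. Mest has 3 windows, and the printed one was picked for holding the most hexamers. Another Mest window (chr6:30733256-30733555) holds 0. Capitals mark the hexamer as read on the printed strand, where it appears as its reverse complement GCGGCA.
Peg3: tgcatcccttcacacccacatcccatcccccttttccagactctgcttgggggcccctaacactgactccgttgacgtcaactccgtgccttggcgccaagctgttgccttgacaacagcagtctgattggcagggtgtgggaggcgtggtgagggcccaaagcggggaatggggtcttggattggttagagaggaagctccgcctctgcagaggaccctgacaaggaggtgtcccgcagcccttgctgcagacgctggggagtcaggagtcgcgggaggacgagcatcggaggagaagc
Usp29: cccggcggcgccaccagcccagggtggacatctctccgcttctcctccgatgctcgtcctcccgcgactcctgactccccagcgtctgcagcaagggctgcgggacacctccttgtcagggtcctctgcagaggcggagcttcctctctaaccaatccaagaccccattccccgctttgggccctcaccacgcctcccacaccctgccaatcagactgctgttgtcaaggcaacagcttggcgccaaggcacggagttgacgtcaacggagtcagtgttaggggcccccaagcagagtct
Mest: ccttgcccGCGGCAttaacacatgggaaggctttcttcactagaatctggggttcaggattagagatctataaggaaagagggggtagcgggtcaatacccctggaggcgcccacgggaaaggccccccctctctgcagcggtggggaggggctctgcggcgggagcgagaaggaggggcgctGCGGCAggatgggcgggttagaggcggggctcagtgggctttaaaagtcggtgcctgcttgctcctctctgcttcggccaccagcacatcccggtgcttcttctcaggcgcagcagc
Nnat: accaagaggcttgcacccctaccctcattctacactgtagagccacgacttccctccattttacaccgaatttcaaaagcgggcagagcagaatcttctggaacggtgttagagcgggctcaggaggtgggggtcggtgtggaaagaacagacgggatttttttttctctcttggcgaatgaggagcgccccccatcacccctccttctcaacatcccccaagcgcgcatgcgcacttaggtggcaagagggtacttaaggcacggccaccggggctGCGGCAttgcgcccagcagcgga

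TGCCGC, searched on both strands, occurred in 14 of 58 promoter windows of 35 genes in the set (24.1%) and in 3813 of 32851 windows of all genes (11.6%). The windows of the set were also richer in CpG, with a median of 14.5 CpG in 300 bases, against 7.0 in windows of all genes. Peg3 and Usp29 held no such hexamer within these 300 bases. A match is a run of letters and was not tested as a binding site. H19 and Mest also host microRNAs, whose mature sequences are given with the seed (bases 2 to 8) in capitals.
miR-675-5p: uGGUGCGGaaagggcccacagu
miR-675-3p: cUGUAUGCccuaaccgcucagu
miR-335-5p: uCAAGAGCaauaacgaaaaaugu
miR-335-3p: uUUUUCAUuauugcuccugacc
The miR-675 pair lies within H19 (chromosome 7) and the miR-335 pair within Mest (chromosome 6). Poly-A libraries do not measure mature microRNAs, so the values below are those of the host genes.

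Libraries held 8927873 to 41690795 reads in genes, with a median of 23150459. Levels are counts-per-million values (CPM) on TMM-normalised totals, and changes are log2 fold changes ± standard error (SE), with p-values of edgeR's quasi-likelihood test adjusted over all 17326 genes by Benjamini-Hochberg. A gene was called, and is said to have risen or fallen, where it changed 2-fold or more at an adjusted p under 0.05. The fibroblast markers averaged 9.75 to 10.54 on the log2(CPM + 1) scale in MEF libraries, 2.08 to 3.61 in iPS SSEA1+ and 8.18 to 8.97 in the cells labelled iPS SSEA1-, and the pluripotency markers averaged 8.71 to 9.13 in iPS SSEA1+ libraries. Replicate 3 of iPS SSEA1- stood apart from its group, with a pluripotency mean of 7.84, against 4.13 and 5.46 in replicates 1 and 2, and Nanog at 440.8 CPM, against 21.4 and 59.4 CPM. Results that use that library are therefore also given without it where it could move them. The macrophage markers averaged 4.09 in MEF replicate 2, against 0.72 and 2.03 in MEF replicates 1 and 3, and 5.27 in iPS SSEA1- replicate 2, against 1.57 and 1.43 in replicates 1 and 3, and their part in the results was not tested. In bulk RNA, fewer cells of a type and less RNA per cell cannot be told apart.

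The set changed in both directions at every stage, and the SSEA1+ cells moved farthest from MEFs at the iPS stage. In iPS SSEA1+ cells 11 of 40 genes rose and 14 fell against MEFs, or 62.5%, where 50.5% of all tested genes were called, 27.9% as higher and 22.5% as lower. In d12 SSEA1+ cells 10 rose and 13 fell, or 57.5%, against 46.6% of all genes (26.5% higher, 20.2% lower). In d9 SSEA1+ cells 8 rose and 11 fell, or 47.5%, against 38.6% of all genes (20.6% higher, 18% lower). In d6 SSEA1+ cells 6 rose and 12 fell, or 45%, against 33.5% of all genes (16.9% higher, 16.6% lower). The counts in d3 SSEA1+ cells were also 6 and 12, against 32.3% of all genes (15.6% higher, 16.7% lower), and were 3 and 12 without MEF replicate 3.

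In SSEA1- cells 14 to 17 of the 40 genes were called at each stage. Against MEFs, 7 genes rose and 10 fell in d3 SSEA1- cells, where 30.2% of all genes were called (15.3% higher, 14.9% lower). In d6 SSEA1- cells 6 rose and 8 fell, against 28.2% of all genes (15.8% higher, 12.4% lower), and in d9 SSEA1- cells 6 rose and 10 fell, against 26.6% (14.9% higher, 11.6% lower). In d12 SSEA1- cells 6 rose and 8 fell, against 28.1% of all genes (17% higher, 11.1% lower). In iPS SSEA1- cells 12 rose and 4 fell, or 12 and 5 without iPS SSEA1- replicate 3, against 26.8% of all genes (19.1% higher, 7.7% lower). The d9 SSEA1- count was 4 and 6 without MEF replicate 1, where 4039 of all genes were called, in place of 4602. The d3 SSEA1- count read 4 rose and 12 fell with DESeq2's size factors in place of TMM, and 3 rose and 12 fell without MEF replicate 3. In iPS SSEA1- cells more genes were higher than lower both in the set and among all genes, and the 12 and 4 of the set were 8 and 4 without MEF replicate 1, 10 and 6 without MEF replicate 2 and 8 and 6 without MEF replicate 3. The median change of the 40 genes there was 0.51, against 0.19 for all tested genes, or 0.71 over 41 genes without iPS SSEA1- replicate 3, against 0.17 for all. In iPS SSEA1+ cells the median was -0.40, against 0.22 for all. The 10 comparisons share the 3 MEF libraries, so their counts are not independent.

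**Figure D1:**
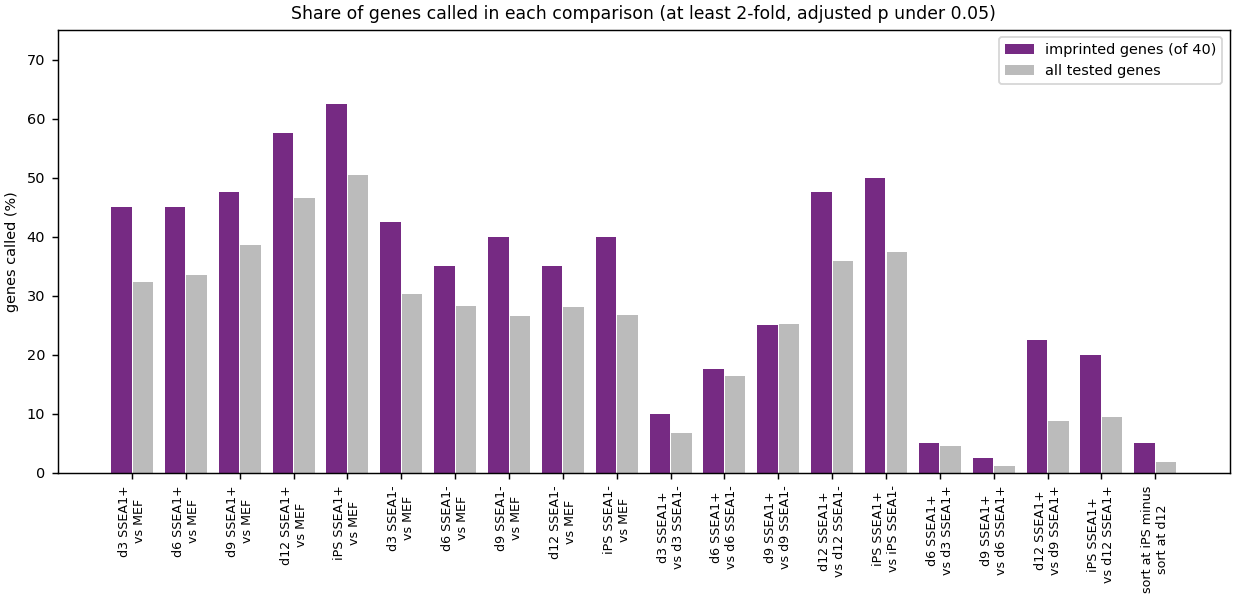
Percent of the 40 tested imprinted genes (purple bars) and of all 17326 tested genes (grey bars) that were called, on the vertical axis, in each of 20 comparisons, on the horizontal axis. Against MEFs the imprinted set reached 62.5% in iPS SSEA1+ cells, where all genes reached 50.5%, and 10% in the sort at d3, where all genes reached 6.67%.

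Genes are listed here by their direction over the 10 comparisons with MEFs. The share of all tested genes with these patterns was not computed. Ascl2 and Ppp1r9a rose in all 10 comparisons with MEFs, and Igf2r, Osbpl5 and Tfpi2 fell in all 10. H13, Ndn and Sgce fell in all 5 SSEA1+ stages. Commd1, Copg2, Trappc9 and Tssc4 were called in none of the 10, and 6 genes rose in some comparisons and fell in others.

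**Figure D2:**
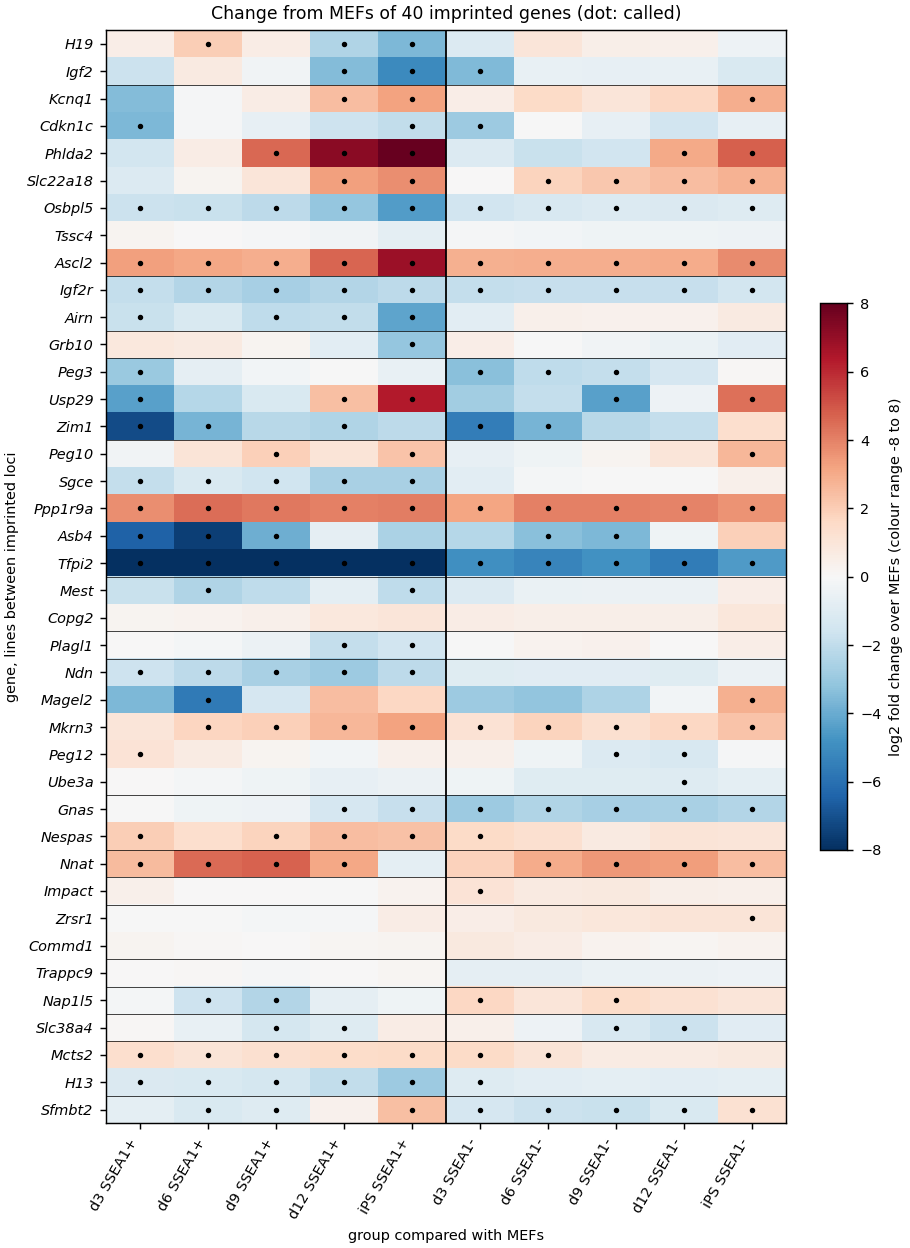
Log2 fold change over MEFs of the 40 tested genes (rows, by locus) in the 10 later groups (columns), with the colour scale ending at -8 and 8 and a dot where the gene was called. Ascl2 and Ppp1r9a are raised and Igf2r, Osbpl5 and Tfpi2 lowered in every column, and fitted changes of genes with 0 to 3 reads in a group depend on the prior count.

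H19 (ENSMUSG00000000031) and Igf2 (ENSMUSG00000048583) lie side by side on chromosome 7 and share enhancers and an insulator. H19 is a maternally expressed non-coding RNA, and Igf2 encodes a paternally expressed fetal growth factor. Both had their highest SSEA1+ levels at d6, both fell in iPS SSEA1+ cells against MEFs, and both were lower in SSEA1+ than in SSEA1- cells at d12 and at the iPS stage. Per kilobase of exon, H19 had the highest level of the set in MEFs (1385 CPM per kb), in d6 SSEA1+ (5435) and still in iPS SSEA1+ cells (112.8), while Igf2 came second in MEFs (641.9) and Slc38a4 in iPS SSEA1+ cells (68.1).

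H19 had 6556, 575 and 3087 CPM in MEF libraries, 3023, 4361 and 7613 in d3 SSEA1+, 15390, 14040 and 10690 in d6 SSEA1+, 8108, 4889 and 2312 in d9 SSEA1+, 744, 493 and 689 in d12 SSEA1+, and 518, 196 and 119 in iPS SSEA1+. In SSEA1- libraries it had 492, 1230 and 3051 CPM at d3, 5230, 6638 and 7869 at d6, 4160, 4322 and 5755 at d9, 4874, 3971 and 4615 at d12, and 3707, 3610 and 295 at the iPS stage. The d6 SSEA1+ libraries exceeded all others, MEF libraries spread widely with replicate 2, the one with the high macrophage markers, lowest, and iPS SSEA1- replicate 3 stood with the SSEA1+ libraries. H19 fell by 3.62 ± 0.80 in iPS SSEA1+ cells against MEFs (adjusted p 0.00033), or by 2.78 without MEF replicate 1 and by 4.48 without iPS SSEA1+ replicate 1. Between the sorted fractions it was lower in SSEA1+ by 2.81 ± 0.77 at d12 (adjusted p 0.0039) and by 3.19 ± 0.78 at the iPS stage (adjusted p 0.0015), where the value was -3.75 (adjusted p 9.6e-05) without iPS SSEA1- replicate 3 and -4.10 without iPS SSEA1+ replicate 1. The d6 SSEA1+ maximum against MEFs (1.97 ± 0.75, adjusted p 0.031) was not called without MEF replicate 2 (1.42, adjusted p 0.14), MEF replicate 3 (1.86, adjusted p 0.094), d6 SSEA1+ replicate 1 (1.86, adjusted p 0.065) or d6 SSEA1+ replicate 2 (1.91, adjusted p 0.063).

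Igf2 had 6769, 984 and 3262 CPM in MEF libraries, 361, 768 and 2290 in d3 SSEA1+, 5946, 6322 and 5725 in d6 SSEA1+, 4391, 3150 and 1370 in d9 SSEA1+, 346, 249.6 and 382 in d12 SSEA1+, and 242, 59.6 and 24.4 in iPS SSEA1+. In SSEA1- libraries it had 50.5, 195 and 695 CPM at d3, 1444, 2437 and 3301 at d6, 1706, 2692 and 2652 at d9, 2386, 2102 and 2698 at d12, and 2549, 1911 and 191 at the iPS stage. No d12 or iPS SSEA1+ library reached the lowest MEF library, and the fractions overlapped at the iPS stage only through SSEA1- replicate 3. Igf2 fell by 3.49 ± 0.92 in d12 SSEA1+ (adjusted p 0.0021) and by 5.08 ± 0.99 in iPS SSEA1+ cells (adjusted p 8.8e-05) against MEFs, and without MEF replicate 1 by 2.77 and 4.34. Without iPS SSEA1+ replicate 1 the iPS value was -6.50. Already at d3 SSEA1- cells had less Igf2 than MEFs, with a change of -3.55 ± 0.92 (adjusted p 0.0029), of -2.87 without MEF replicate 1 and of -4.94 without d3 SSEA1- replicate 3. Igf2 was lower in SSEA1+ than in SSEA1- cells by 2.88 ± 0.90 at d12 (adjusted p 0.0097) and by 3.83 ± 0.94 at the iPS stage (adjusted p 0.0015), where it was -4.39 (adjusted p 0.00022) without iPS SSEA1- replicate 3 and -5.29 without iPS SSEA1+ replicate 1.

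Together both genes took 0.117 to 0.997% of all reads in MEF libraries, 1.72 to 2.06% in d6 SSEA1+ libraries and 0.015 to 0.081% in iPS SSEA1+ libraries. The ratio of Igf2 to H19 reads was 1.03, 1.71 and 1.06 in MEF libraries and lay between 0.103 and 0.688 in all later libraries, with the lowest in d3 SSEA1- replicate 1. Thus every later library held fewer Igf2 than H19 reads and every MEF library the reverse.

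**Figure D3:**
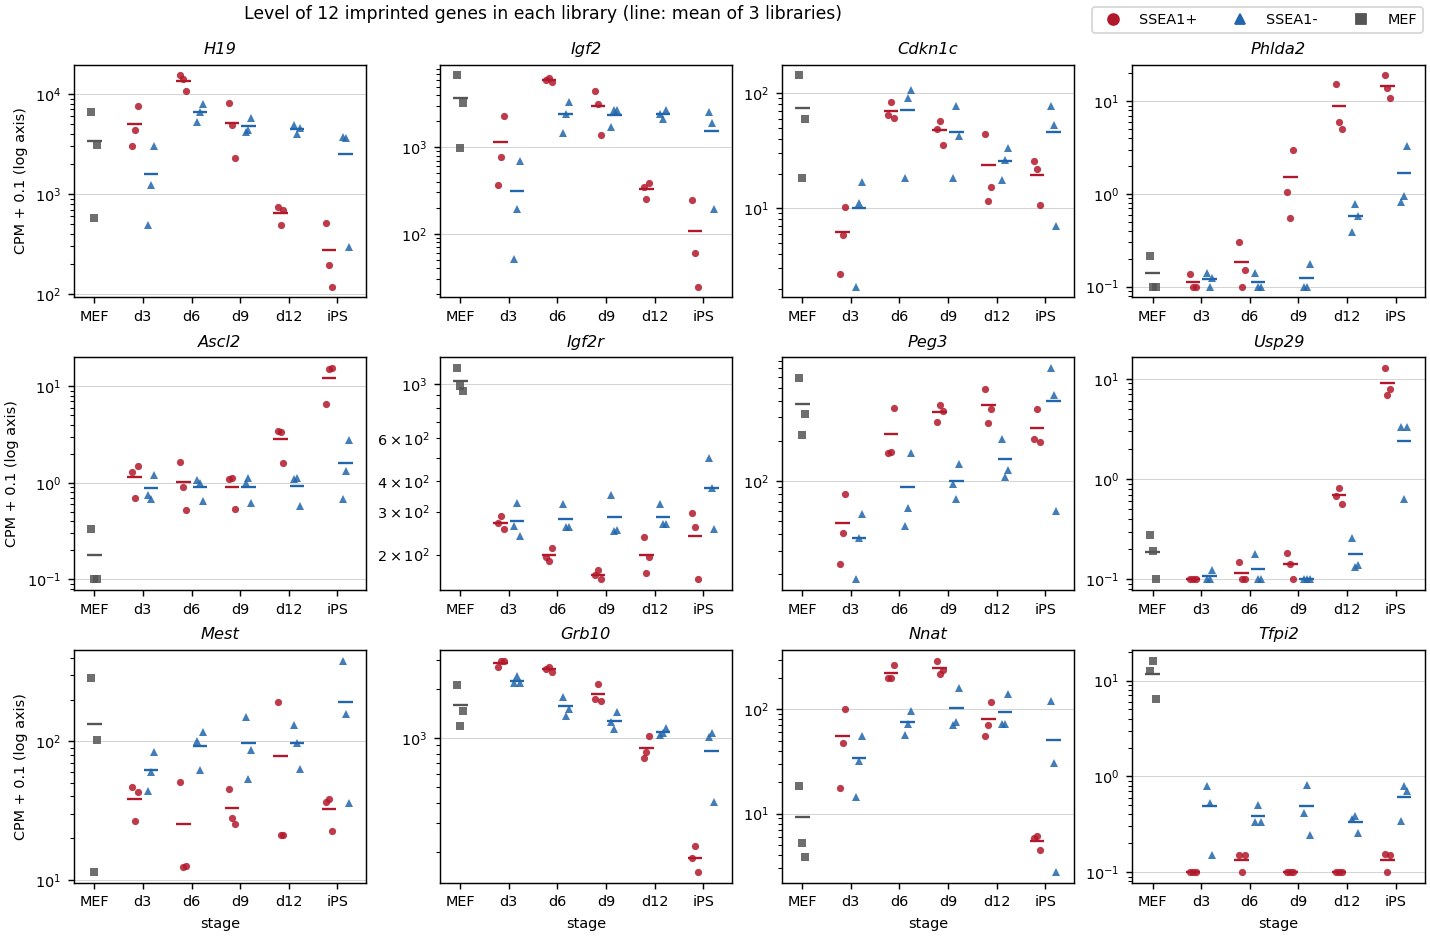
Level of 12 imprinted genes in each of the 33 libraries (points) by group, as CPM + 0.1 on a log axis, with a line at the mean of the 3 libraries. H19 and Igf2 peak in d6 SSEA1+ libraries, at 10690 to 15390 and 5725 to 6322 CPM, and Tfpi2 drops to 0 reads in d3, d9 and d12 SSEA1+ cells.

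The neighbouring Kcnq1 cluster on chromosome 7 split into genes that rose and genes that fell. Phlda2, a pleckstrin homology protein that restrains placental growth, and Ascl2, a transcription factor of the trophoblast, rose towards the iPS stage, most in SSEA1+ cells. Slc22a18, an organic cation transporter, rose in both fractions. Osbpl5, an oxysterol-binding protein, fell steadily in SSEA1+ cells. Cdkn1c, the cell cycle inhibitor p57, fell at d3.

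Phlda2 had 0.953, 0.45 and 2.87 CPM in d9 SSEA1+, 15.3, 5.82 and 4.99 in d12 SSEA1+ and 19.1, 14 and 10.8 in iPS SSEA1+ libraries, while the MEF group held 2 reads in all (0.116, 0 and 0 CPM). SSEA1- libraries had 0.29, 0.677 and 0.471 CPM at d12 and 0.72, 0.857 and 3.2 at the iPS stage, and at most 0.0734 before. Against the 2 MEF reads, the ratio was 32.2 in d9 SSEA1+ cells (95% counting interval 8.66 to 269.5), 229.2 in d12 SSEA1+ (63.2 to 1897) and 359.9 in iPS SSEA1+ (99.3 to 2977), and the gene was called in all 3. Both MEF reads came from replicate 1, and the fitted d9 change of 4.59 was 3.55 without d9 SSEA1+ replicate 3. SSEA1+ and SSEA1- libraries did not overlap at d9, d12 or the iPS stage. The sort difference was 4.17 ± 0.81 at d12 (adjusted p 0.00016), or 3.48 without d12 SSEA1+ replicate 1, and 3.19 ± 0.76 at the iPS stage (adjusted p 0.0012), or 4.18 (adjusted p 0.00025) without iPS SSEA1- replicate 3.

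Ascl2 was at 3.38, 3.27 and 1.49 CPM in d12 SSEA1+, 6.42, 14.9 and 15.4 in iPS SSEA1+ and 0.583, 1.23 and 2.68 in iPS SSEA1- libraries, against 0.232, 0 and 0 CPM (4 reads) in MEF libraries. From d3 to d9 both fractions held 0.422 to 1.54 CPM, so all later libraries exceeded all MEF libraries. The change against MEFs was 6.82 ± 0.83 in iPS SSEA1+ cells (adjusted p 1.2e-07) and 4.65 ± 0.80 in d12 SSEA1+ cells (adjusted p 2.4e-05), and 2.86 to 3.79 in the 5 SSEA1- groups. All 4 MEF reads came from replicate 1, and without it the fitted changes in iPS and d12 SSEA1+ cells were 11.19 and 8.99 on a base of 0 reads, and depend on the prior count. At the iPS stage SSEA1+ exceeded SSEA1- by 3.03 ± 0.63 (adjusted p 0.0003), or by 3.74 (adjusted p 0.00013) without iPS SSEA1- replicate 3.

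Slc22a18 had 7.86, 4.97 and 3.96 CPM in d12 SSEA1+, 13.4, 7.29 and 1.94 in iPS SSEA1+ and 3.12, 3.91 and 4.76 in iPS SSEA1- libraries, against 0.523, 0.186 and 1.11 in MEF libraries. Every one of these libraries lay above the highest MEF library, and the iPS fractions overlapped and were not called apart. Against MEFs Slc22a18 was called as risen in 2 of 5 SSEA1+ stages and 4 of 5 SSEA1- stages. In the d6 sort it was called lower in SSEA1+ cells, a call lost with no filter on low counts (-1.65, edgeR adjusted p 0.057) and without several single libraries. It rose by 3.27 ± 0.64 in d12 SSEA1+ (adjusted p 0.0001), 3.70 ± 0.65 in iPS SSEA1+ (adjusted p 2.1e-05) and 2.76 ± 0.63 in iPS SSEA1- cells (adjusted p 0.0014; 2.62 without its replicate 3), and the iPS SSEA1+ value was 2.92 without its replicate 1 and 4.30 without MEF replicate 3. Kcnq1, a potassium channel, stayed under 1 CPM, with 0.743, 0.557 and 0.367 CPM in iPS SSEA1+ libraries against 2 reads in MEFs (ratio 13.7, 95% counting interval 3.48 to 117.8).

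Osbpl5 had 39.4, 40.9 and 41.8 CPM in d3 SSEA1+, 10.4, 14.8 and 21.4 in d12 SSEA1+ and 9.66, 4.29 and 3.83 in iPS SSEA1+ libraries, against 126, 140.4 and 129 CPM in MEF libraries. The SSEA1- libraries held 36.4 to 78.5 CPM over all stages, so each later library lay below each MEF library. Osbpl5 fell by 1.69 ± 0.32 in d3 SSEA1+ (adjusted p 0.0001) and by 4.47 ± 0.36 in iPS SSEA1+ cells (adjusted p 1.4e-10), a change of -5.09 without iPS SSEA1+ replicate 1. The sort difference was -1.95 ± 0.32 at d12 (adjusted p 2.8e-05) and -3.42 ± 0.34 at the iPS stage (adjusted p 1.8e-08), or -4.02 without iPS SSEA1+ replicate 1 and -3.26 without iPS SSEA1- replicate 3.

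Cdkn1c had 2.58, 5.7 and 10.2 CPM in d3 SSEA1+ libraries, against 143, 18.2 and 59.1 CPM in MEF libraries, and 64.2, 84.4 and 60.6 CPM in d6 SSEA1+ libraries. At d3 no library reached the lowest MEF library, and by d6 all lay within the MEF range. The fall at d3 was 3.59 ± 0.87 (adjusted p 0.0015), or 2.76 without MEF replicate 1. In iPS SSEA1+ libraries it stood at 25.4, 21.9 and 10.5 CPM, and in iPS SSEA1- libraries at 77.4, 53.1 and 6.89. Cdkn1c was also called as fallen against MEFs in d3 SSEA1- and iPS SSEA1+ cells. Without MEF replicate 1 both calls were lost (-2.05, edgeR adjusted p 0.058, and -1.05, 0.29). The iPS SSEA1+ call was also lost with no filter (-1.99, 0.067) and without iPS SSEA1+ replicate 2 (-2.09, 0.065) or 3 (-1.69, 0.12). Tssc4 varied little, between 14.8 and 48.7 CPM in all 33 libraries.

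Igf2r, the receptor that removes IGF2 from the cell surface, and Airn, the paternal non-coding RNA that runs through Igf2r on the other strand and silences it in cis, form the locus on chromosome 17. Igf2r fell within 3 days in both fractions and remained low. Airn was lowest in iPS SSEA1+ cells.

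Igf2r (ENSMUSG00000023830) had 269.5, 287 and 254 CPM in d3 SSEA1+, 165, 173 and 158 in d9 SSEA1+ and 296, 259.8 and 159.5 in iPS SSEA1+ libraries, against 1163, 977 and 933 CPM in MEF libraries. SSEA1- libraries had 239 to 351 CPM at d3 to d12 and 496, 374 and 254 at the iPS stage. Hence no later library came near a MEF library. The change against MEFs was -1.92 ± 0.22 in d3 SSEA1+ (adjusted p 1.6e-07), -2.63 ± 0.23 in d9 SSEA1+ (adjusted p 9.6e-10), -2.10 ± 0.22 in iPS SSEA1+ (adjusted p 1.1e-08) and -1.45 ± 0.22 in iPS SSEA1- cells (adjusted p 1.7e-05), and each was called under every alternative tried. Without iPS SSEA1- replicate 3 the last was -1.23 (adjusted p 0.0002).

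Airn had 0.796, 0.223 and 0.0524 CPM in iPS SSEA1+ libraries, 14.7, 15.4 and 2.49 in iPS SSEA1- libraries, and 4.76, 7.62 and 7.65 in MEF libraries. All 3 iPS SSEA1+ libraries were lower than every library of the other groups named. It fell by 4.20 ± 0.77 in iPS SSEA1+ cells against MEFs (adjusted p 3.9e-05), or by 5.63 without iPS SSEA1+ replicate 1. Against iPS SSEA1- cells the difference was -4.90 ± 0.78 (adjusted p 1.5e-05), -5.41 (adjusted p 1.4e-06) without iPS SSEA1- replicate 3 and -6.35 without iPS SSEA1+ replicate 1. At d12 it was already lower in SSEA1+ than in SSEA1- cells, by 2.31 ± 0.67 (adjusted p 0.0059), or by 2.99 without d12 SSEA1+ replicate 3. Airn starts inside Igf2r on the other strand, and counting used no strand per the names of the deposited files, so Airn reads and reads of unspliced Igf2r RNA cannot be told apart.

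Grb10 on chromosome 11 encodes an adaptor that dampens insulin and IGF receptor signals. It stayed near or above its MEF level until d9 and fell late in SSEA1+ cells. Grb10 (ENSMUSG00000020176) had 2102, 1187 and 1456 CPM in MEF libraries, 2717, 2970 and 2944 in d3 SSEA1+, 2663, 2703 and 2520 in d6 SSEA1+, 1740, 2139 and 1685 in d9 SSEA1+, 756, 819 and 1028 in d12 SSEA1+, and 184, 216 and 150.2 in iPS SSEA1+. SSEA1- libraries had 1036, 1075 and 1158 CPM at d12 and 1014, 1075 and 402 at the iPS stage. At d12 and at the iPS stage each SSEA1+ library lay below each SSEA1- library. Grb10 fell by 2.24 ± 0.26 in iPS SSEA1+ against d12 SSEA1+ cells (adjusted p 1.9e-06) and by 3.11 ± 0.26 against MEFs (adjusted p 3.2e-10).

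The Peg3 domain on chromosome 7 holds Peg3, a paternally expressed zinc finger gene, Usp29, a paternally expressed gene of the deubiquitinase family, and Zim1, a maternally expressed zinc finger gene. Peg3 and Zim1 fell at d3, and Usp29 rose at the iPS stage. Peg3 and Usp29 share the start region printed above, and in iPS SSEA1+ cells Usp29 was called against MEFs and Peg3 was not.

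Peg3 (ENSMUSG00000002265) had 592, 221 and 316 CPM in MEF libraries, 23.9, 40.6 and 80.5 in d3 SSEA1+, 163, 165 and 352 in d6 SSEA1+, 277, 371 and 334 in d9 SSEA1+, 494, 271 and 346 in d12 SSEA1+, and 205, 345 and 197 in iPS SSEA1+. In SSEA1- libraries it had 18.2, 37.5 and 56.4 CPM at d3, 94.3, 72.8 and 134 at d9, 208, 107 and 121 at d12, and 706, 439 and 59.9 at the iPS stage. All 6 d3 libraries lay below all MEF libraries, and SSEA1- libraries stayed below them through d12. At d3 Peg3 fell by 2.96 ± 0.65 in SSEA1+ (adjusted p 0.0005) and by 3.33 ± 0.66 in SSEA1- cells (adjusted p 0.00021).

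Usp29 had 0.582, 0.723 and 0.466 CPM in d12 SSEA1+, 12.7, 6.74 and 7.81 in iPS SSEA1+ and 3.22, 0.535 and 3.2 in iPS SSEA1- libraries, against 0.174, 0.093 and 0 CPM (4 reads) in MEF libraries. The iPS SSEA1+ libraries exceeded every other library. Usp29 rose by 6.34 ± 0.95 in iPS SSEA1+ cells against MEFs (adjusted p 5.5e-06), or by 7.21 without MEF replicate 1, and by 3.93 ± 0.77 against d12 SSEA1+ cells (adjusted p 0.0016). In iPS SSEA1- cells the rise over MEFs was 4.38 ± 0.92 (adjusted p 0.00088), or 5.24 without MEF replicate 1 and 4.06 without iPS SSEA1- replicate 3. It had no read in d3 SSEA1+ or d9 SSEA1- cells.

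Zim1 had 0.0748, 0.0663 and 0.0512 CPM in d3 SSEA1+, 0.162, 0.233 and 0.227 in d3 SSEA1- and 3.61, 2.28 and 1.1 in iPS SSEA1+ libraries, against 18.4, 6.13 and 5.01 CPM in MEF libraries. Neither d3 fraction overlapped with MEFs. The fall at d3 was 7.14 ± 1.40 in SSEA1+ (adjusted p 0.00017) and 5.53 ± 1.21 in SSEA1- cells (adjusted p 0.0006), changes of -6.43 in SSEA1+ and -4.82 in SSEA1- cells without MEF replicate 1. The iPS SSEA1- libraries ranged widely, with 63.1, 11.3 and 0.447 CPM.

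The Peg10 and Sgce cluster on chromosome 6 held genes that rose and genes that fell. Ppp1r9a, which encodes neurabin, an actin-binding partner of protein phosphatase 1, rose at once and stayed up. Tfpi2, an inhibitor of serine proteases, all but vanished from SSEA1+ cells, and Sgce, ε-sarcoglycan of the cell membrane, fell in them. Peg10, a retrotransposon-derived gene needed in the placenta, was higher in iPS SSEA1- cells than in MEFs.

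Ppp1r9a had 27.2, 44.8 and 36 CPM in d3 SSEA1+, 44.1, 63 and 68.5 in d6 SSEA1+ and 34.8, 54.1 and 51.6 in iPS SSEA1+ libraries, against 2.44, 3.35 and 2.23 CPM in MEF libraries. All SSEA1- libraries held 15.2 to 55.6 CPM, so the MEF libraries lay below every later one. The rise over MEFs was 3.17 to 4.45 in the 10 groups, with 4.45 ± 0.40 in d6 SSEA1+ (adjusted p 2.2e-09) and 3.57 ± 0.38 in iPS SSEA1- cells (adjusted p 2.9e-07), which was 2.91 without iPS SSEA1- replicate 1 and 3.90 without replicate 3.

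Tfpi2 had no read in d3, d9 and d12 SSEA1+ libraries and 2 reads each in d6 SSEA1+ and iPS SSEA1+ libraries, against 12.6, 16 and 6.26 CPM in MEF libraries. The SSEA1- libraries held 0.0505 to 0.721 CPM. It was at least 217.8-fold lower in d3, 210.9-fold in d9 and 209.7-fold in d12 SSEA1+ cells than in MEFs, with 3 counts over the group as the floor for 0 reads. In d6 SSEA1+ it was 277.2-fold (95% counting interval 76.3 to 2296) and in iPS SSEA1+ cells 245.7-fold lower (67.6 to 2035). In SSEA1- cells the change was -4.51 ± 0.75 at the iPS stage (adjusted p 0.00013; -4.64 without replicate 3) and -5.59 ± 0.80 at d12 (adjusted p 1.9e-05).

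Sgce had 11.9, 4.08 and 9.05 CPM in d12 SSEA1+ libraries, against 52.1, 59.6 and 39.6 CPM in d12 SSEA1- libraries, and 10.2, 5.34 and 9.38 CPM in iPS SSEA1+ libraries, against 69, 94.9 and 36.2 in iPS SSEA1- libraries. MEF libraries had 53.2, 44.1 and 55 CPM, so that at these stages the SSEA1- libraries overlapped with them and the SSEA1+ libraries did not. The sort difference was -1.56 ± 0.33 at d9 (adjusted p 0.00065), -2.59 ± 0.34 at d12 (adjusted p 2e-06) and -3.00 ± 0.35 at the iPS stage (adjusted p 1.6e-07), or -3.34 without iPS SSEA1- replicate 3. Against MEFs Sgce fell by 2.61 ± 0.34 in iPS SSEA1+ cells (adjusted p 3.8e-07).

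Peg10 had 131, 124 and 411 CPM in iPS SSEA1+ and 315, 456 and 111 in iPS SSEA1- libraries, against 83.8, 30.8 and 22 CPM in MEF libraries. All 6 iPS libraries lay above the MEF libraries. The change was 2.68 ± 0.73 in iPS SSEA1- cells (adjusted p 0.0054), or 3.42 without MEF replicate 1 and 3.08 without iPS SSEA1- replicate 3, and 2.28 ± 0.72 in iPS SSEA1+ cells (adjusted p 0.0074), which was 1.42 (adjusted p 0.098) without iPS SSEA1+ replicate 3.

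Asb4, a SOCS-box protein gene, had 0.112, 0 and 0.102 CPM in d3 SSEA1+ libraries, 2 reads in all in d6 SSEA1+ libraries, and 12.4, 3.9 and 5.98 CPM in MEF libraries. In d6 SSEA1+ cells it was 190.7-fold lower than in MEFs (95% counting interval 52.3 to 1582), and at the iPS stage SSEA1+ libraries had 2.44, 0.947 and 0.524 CPM, against 56, 28.5 and 0.596 in SSEA1- libraries. Only SSEA1- replicate 3 fell within the SSEA1+ range. That sort difference was -4.44 ± 1.31 (adjusted p 0.0066), -5.03 without iPS SSEA1- replicate 3, -3.58 without iPS SSEA1- replicate 1 and -5.35 without iPS SSEA1+ replicate 1. Calcr, the calcitonin receptor, had no read in MEF libraries and reached 1.13 CPM in d12 SSEA1+ replicate 1.

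Mest on chromosome 6, a paternally expressed gene of the α/β-hydrolase fold, varied widely among replicates, and none of its differences was called under every alternative tried. It had 286, 11.2 and 102 CPM in MEF libraries, 50.6, 12.3 and 12.4 in d6 SSEA1+, 193, 21 and 20.9 in d12 SSEA1+ and 36.3, 38.4 and 22.4 in iPS SSEA1+, and 380.5, 158 and 35.6 in iPS SSEA1- libraries. MEF replicate 2 was the lowest library of all and iPS SSEA1- replicate 1 the highest. Mest shares 23.1% of its exon bases with its neighbour Copg2 on the other strand, which stood at 46.2 to 119 CPM throughout and was called in no comparison with MEFs. Copg2 encodes a coatomer subunit. Klf14, a Krüppel-like factor gene that did not pass the filter, reached 1.34 CPM in MEF replicate 1.

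Plagl1 on chromosome 10, a zinc finger regulator of growth that is expressed from the paternal chromosome, fell late in SSEA1+ cells. It had 23.2, 41.5 and 42.8 CPM in d12 SSEA1+ libraries, against 129, 179.9 and 98.5 in d12 SSEA1- libraries and 183, 64.4 and 148 in MEF libraries. The d12 SSEA1+ libraries lay below both other groups. The change was -1.88 ± 0.49 against MEFs (adjusted p 0.0017) and -1.92 ± 0.49 against d12 SSEA1- cells (adjusted p 0.002). In iPS SSEA1+ libraries Plagl1 had 30.4, 27.8 and 79.2 CPM, and the change against MEFs was -1.52 ± 0.48 (adjusted p 0.0075), or -2.24 without iPS SSEA1+ replicate 3.

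The Snrpn to Ube3a domain on chromosome 7 is the region of Prader-Willi and Angelman syndromes in humans. Its MAGE-family gene Ndn, a growth suppressor, fell in SSEA1+ cells at every stage. Mkrn3, a RING-finger ubiquitin ligase gene, rose.

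Ndn had 28.8, 24.2 and 26.4 CPM in d3 SSEA1+, 17.2, 7.1 and 8.86 in d12 SSEA1+ and 25.4, 11 and 21.3 in iPS SSEA1+ libraries, against 111, 61.4 and 75.1 in MEF libraries. SSEA1- libraries held 30.5 to 72 CPM. From d6 on, the SSEA1+ libraries lay below the SSEA1- libraries of their stage. Against MEFs the change was -2.89 ± 0.34 in d12 SSEA1+ cells (adjusted p 8.3e-08), and the sort difference was -1.18 ± 0.32 at d6 (adjusted p 0.0077), -1.70 ± 0.32 at d9 (adjusted p 0.00025), -1.92 ± 0.33 at d12 (adjusted p 3.6e-05) and -1.63 ± 0.32 at the iPS stage (adjusted p 0.00018), or -1.50 without iPS SSEA1- replicate 3.

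Mkrn3 had 4.15, 4.46 and 4.43 CPM in d12 SSEA1+, 3.56, 6.79 and 9.17 in iPS SSEA1+ and 3.53, 3.05 and 3.24 in iPS SSEA1- libraries, against 0.523, 0.744 and 0.835 in MEF libraries. Each of these libraries exceeded the MEF libraries, and the rise was 3.24 ± 0.43 in iPS SSEA1+ (adjusted p 3.8e-07) and 2.25 ± 0.42 in iPS SSEA1- cells (adjusted p 0.00019), or 2.27 without iPS SSEA1- replicate 3. Peg12, a Frat-family gene, was higher in SSEA1+ than in SSEA1- cells at d9, with 13.1, 11.5 and 17 against 4.28, 5.31 and 7.12 CPM (1.32 ± 0.37, adjusted p 0.0071). Magel2, another MAGE-family gene, reached 3.31 CPM in d12 SSEA1+ replicate 1 and 4.35 in iPS SSEA1- replicate 1, and no more than 1.33 CPM in any other library. Ube3a, a ubiquitin ligase whose imprinting is known from neurons, stood at 31.4 to 131 CPM throughout.

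On chromosome 2, the counts of Gnas, the gene of the stimulatory G protein α subunit, separated the sorted fractions early. Gnas had 23.3, 22.9 and 28 CPM in d3 SSEA1+ libraries, against 4.09, 2.29 and 3.61 in d3 SSEA1- libraries, and 27.5, 24.2 and 22.7 in MEF libraries. The d3 SSEA1+ libraries lay around the MEF level and the SSEA1- libraries far below it. The sort difference was 2.89 ± 0.42 at d3 (adjusted p 0.00021), 2.03 ± 0.40 at d6 (adjusted p 0.00068) and 2.21 ± 0.41 at d9 (adjusted p 0.00019), and Gnas was the only gene of the set higher in SSEA1+ cells in the d3 sort. In iPS SSEA1+ cells it had 6.26, 8.07 and 6.66 CPM, a fall of 1.83 ± 0.40 against MEFs (adjusted p 0.00033). Gnas shares 22% of its exon bases with Gm20721 and its antisense partner Nespas, both on the other strand, and Nespas shares 31.4% of its own with Gnas. Reads there cannot be told apart and may be counted for neither, so an unknown part of the Gnas level may be missing. The sort differences and the fall are those of the reads that were counted, and may not be those of the whole gene. Nespas stayed between 0.116 and 2.04 CPM and rose by 2.45 ± 0.61 in d12 SSEA1+ (adjusted p 0.0011) and by 2.37 ± 0.61 in iPS SSEA1+ cells (adjusted p 0.0014), or by 3.49 and 3.42 without MEF replicate 2.

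Nnat, a small proteolipid of the endoplasmic reticulum, rose in the middle of the course and was low in iPS SSEA1+ cells. It had 18.4, 5.11 and 3.76 CPM in MEF libraries, 17.3, 47.3 and 102 in d3 SSEA1+, 201, 199 and 265 in d6 SSEA1+, 292, 216 and 239 in d9 SSEA1+, 55.6, 71.4 and 117 in d12 SSEA1+, and 5.68, 6.01 and 4.35 in iPS SSEA1+. SSEA1- libraries had 56 to 160.4 CPM at d6 to d12 and 119.6, 30.6 and 2.64 at the iPS stage. All d6 to d12 libraries exceeded all MEF libraries, while the iPS SSEA1+ libraries lay within the MEF range. Nnat rose by 4.73 ± 0.87 in d9 SSEA1+ cells against MEFs (adjusted p 6.3e-05), or by 5.73 without MEF replicate 1, and then fell by 3.92 ± 0.84 in iPS SSEA1+ against d12 SSEA1+ cells (adjusted p 0.0025). At the iPS stage the sort difference was -3.25 ± 0.82 (adjusted p 0.0019), -3.81 (adjusted p 4.2e-05) without iPS SSEA1- replicate 3 and, not called, -1.73 (adjusted p 0.059) without iPS SSEA1- replicate 1.

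Also on chromosome 2, H13, a maternally expressed signal peptide peptidase, fell in SSEA1+ cells at every stage. It had 94.1, 74.5 and 75.2 CPM in d3 SSEA1+, 42.5, 48.9 and 53.4 in d12 SSEA1+ and 32.1, 24.3 and 17.8 in iPS SSEA1+ libraries, against 187, 201 and 165 in MEF libraries. SSEA1- libraries had 101, 104 and 107 CPM at d12 and 79.4, 106 and 140.2 at the iPS stage. The groups did not overlap in either sort or with MEFs. H13 fell by 2.90 ± 0.21 in iPS SSEA1+ cells against MEFs (adjusted p 2.3e-11), and was lower in SSEA1+ than in SSEA1- cells by 1.11 ± 0.19 at d12 (adjusted p 5.1e-05) and by 2.14 ± 0.20 at the iPS stage (adjusted p 5.7e-09), or by 1.94 without iPS SSEA1- replicate 3. Mcts2, the paternally expressed retrogene in an H13 intron, held 8.09 to 26.6 CPM in all later libraries, against 4.73 to 6.97 in MEF libraries, with a rise of 1.46 ± 0.27 in d12 SSEA1+ cells (adjusted p 6.4e-05). Its near copy Mcts1 makes its counts uncertain.

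Sfmbt2, a Polycomb-group gene on chromosome 2, and Slc38a4, an amino acid transporter on chromosome 15, are both paternally expressed with a strong placental role, and both rose at the end in SSEA1+ cells. Sfmbt2 had 25.4, 48.1 and 65.4 CPM in iPS SSEA1+ libraries, against 15.5, 7.35 and 9.33 in d12 SSEA1+ and 7.84, 9.57 and 8.35 in MEF libraries. The iPS SSEA1+ libraries lay above both, and the change was 2.43 ± 0.39 against MEFs (adjusted p 7.9e-06) and 2.11 ± 0.39 against d12 SSEA1+ cells (adjusted p 0.00057). In SSEA1- cells Sfmbt2 fell before that, to 2.09, 2.73 and 2.5 CPM at d9 (-1.81 ± 0.40, adjusted p 0.00078).

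Slc38a4 had 374, 258 and 238 CPM in iPS SSEA1+ libraries, against 124, 74.8 and 79.9 in d12 SSEA1+ and 109.8, 77.9 and 116 in iPS SSEA1- libraries. The iPS SSEA1+ libraries lay above both groups. The change was 1.64 ± 0.28 against d12 SSEA1+ (adjusted p 0.00026) and 1.52 ± 0.28 against iPS SSEA1- cells (adjusted p 7.5e-05), or 1.61 without iPS SSEA1- replicate 3. MEF libraries held 301, 127 and 146 CPM, so 2 of the 3 iPS SSEA1+ libraries lay within the MEF range and replicate 1 above it, and the gene was not called against MEFs at the iPS stage.

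Nap1l5, a retrogene of the nucleosome assembly protein family on chromosome 6, was lower in SSEA1+ than in SSEA1- cells from d3 to d12. The d3 call was lost without d3 SSEA1- replicate 2 (-1.52, adjusted p 0.13) or 3 (-1.9, 0.056), or d3 SSEA1+ replicate 1 (-1.81, 0.083) or 3 (-1.57, 0.16). Against MEFs Nap1l5 rose in 2 of 5 SSEA1- stages and fell in 2 of 5 SSEA1+ stages, not all under every alternative. At d9 it had 0.166, 0.123 and 0.239 CPM in SSEA1+ libraries, against 3.65, 0.911 and 3.16 in SSEA1- libraries, without overlap (-3.84 ± 0.63, adjusted p 5.5e-05). Of the remaining genes, Impact, an inhibitor of the amino acid sensing kinase GCN2, held 68.5 to 242 CPM. Zrsr1, a splicing factor retrogene on chromosome 11, held 8.18 to 31.3 CPM, and Commd1, a copper and NF-κB regulator around it, 24.8 to 72.2. Trappc9, a subunit of a vesicle tethering complex, held 22.8 to 64.6 CPM.

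The sort itself called few genes of the set early and many late. SSEA1+ cells had 1 gene higher and 3 lower than SSEA1- cells at d3, where 6.67% of all tested genes were called (2.76% higher, 3.91% lower). At d6 they had 2 higher and 5 lower, against 16.4% of all genes (6.31% higher, 10.1% lower), and at d9 they had 4 higher and 6 lower, against 25.2% (11.5% higher, 13.7% lower). At d12 they had 8 higher and 11 lower, against 35.9% of all genes (18% in each direction), and at the iPS stage 6 higher and 14 lower, against 37.4% (16% higher, 21.3% lower). At d6 the fit with replicate numbers as a block, whose offsets are shared by all groups, called 3 higher and 8 lower. The d12 counts were 5 and 12 without d12 SSEA1+ replicate 1. The median sort difference of the set at the iPS stage was -0.43, against 0.06 for all tested genes. Without iPS SSEA1- replicate 3 the iPS counts were 6 and 15, where 43.8% of all genes were called, and the median was -0.70, against 0.03 for all. The d3 count of 4 was 2 without d3 SSEA1- replicate 2, d3 SSEA1+ replicate 1 or d3 SSEA1+ replicate 3, and the d6 count of 7 was 3 without d6 SSEA1- replicate 2 and 4 without d6 SSEA1+ replicate 2 or 3. Of all genes these fits called 689, 946 and 531 at d3, in place of 1155, and 2100, 2406 and 2169 at d6, in place of 2847.

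Grb10 and H13 were the 2 genes whose sort difference itself changed between d12 and the iPS stage (background 1.85% of all genes, 0.41% higher and 1.44% lower). The difference of Grb10 was -0.33 at d12 and -2.18 ± 0.25 at the iPS stage, and the change of -1.85 ± 0.35 had an adjusted p of 0.0062, or -2.14 (adjusted p 0.00024) without iPS SSEA1- replicate 3. That of H13 was -1.11 at d12 and -2.14 at the iPS stage, and the change of -1.03 ± 0.27 had an adjusted p of 0.045. The H13 change was not called without iPS SSEA1- replicate 3 (-0.76, adjusted p 0.12) or 2 (-0.99, 0.10), iPS SSEA1+ replicate 3 (-0.83, 0.13) or 2 (-1.01, 0.089), d12 SSEA1+ replicate 2 (-1.01, 0.068) or 3 (-0.96, 0.11), or d12 SSEA1- replicate 1 (-1.03, 0.078), 2 (-1.04, 0.086) or 3 (-1.05, 0.096). Earlier, from d3 to d9, Grb10 was higher in SSEA1+ cells, by 0.36, 0.75 and 0.54, each under 2-fold.

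**Figure D4:**
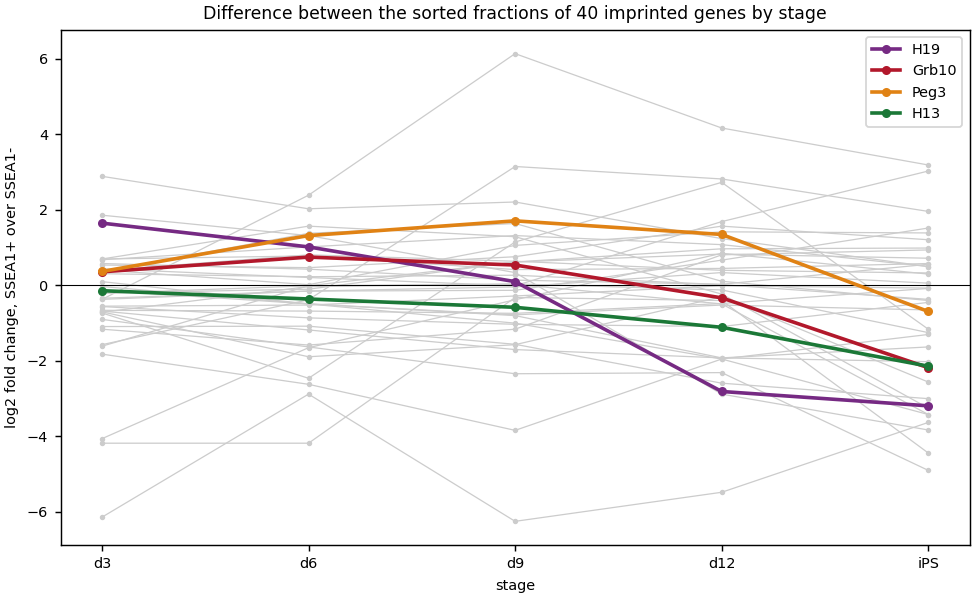
SSEA1+ over SSEA1- log2 fold change of the 40 tested genes (one line each) at d3, d6, d9, d12 and the iPS stage, with Grb10, H13, H19 and Peg3 in colour. Grb10 and H13 end at -2.18 and -2.14, and fitted changes of genes with 0 to 3 reads in a group depend on the prior count.

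From one SSEA1+ stage to the next, 2 genes were called at d6 against d3, both higher, where 4.46% of all genes were called (3.21% higher, 1.25% lower). At d9 against d6, 1 gene was called, as higher, where 1.08% of all genes were called (0.998% higher, 0.0808% lower). At d12 against d9, 5 rose and 4 fell, against 8.82% of all genes (5.37% higher, 3.45% lower), and in iPS against d12 SSEA1+ cells 4 rose and 4 fell, against 9.49% (3.74% higher, 5.75% lower). In the last step Sfmbt2, Slc38a4 and Usp29 rose and Grb10 and Nnat fell under every alternative tried, and the count was 5 in place of 8 without d12 SSEA1+ replicate 3. The d6 count of 2 was 0 without d3 SSEA1+ replicate 1 or 2 and 1 without d6 SSEA1+ replicate 2 or 3, and the d9 count of 1 was 0 without d6 SSEA1+ replicate 2 or 3 or d9 SSEA1+ replicate 3. The count for d12 against d9 was 3 in place of 9 without d12 SSEA1+ replicate 1 or d9 SSEA1+ replicate 1, and 1 without d9 SSEA1+ replicate 2. Fewer of all genes were called in these fits too. At d6 they were 205, 490, 513 and 330 in the order given, in place of 773, and at d9 51, 92 and 72, in place of 187. At d12 they were 578, 879 and 682, in place of 1528, and in the last step 871, in place of 1645. Mean endoderm marker expression was 2.59 in d12 SSEA1+ replicate 1 on the log2(CPM + 1) scale, against 0.89 and 0.96 in replicates 2 and 3, and its part in the result was not tested.

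The iPS libraries of one fraction differed among themselves more in the set than in genes at large. Among genes that averaged 1 CPM or more, the highest of the 3 iPS SSEA1- libraries was at least 4-fold above the lowest in 17 of 37 genes of the set (45.9%), against 14.8% of all genes. In iPS SSEA1+ libraries this held for 4 of 35 (11.4%, against 5.25% of all), in d12 SSEA1+ libraries for 4 of 36 (11.1%, against 6.18%) and in MEF libraries for 5 of 31 (16.1%, against 4.39%). The median ratio of highest to lowest was 3.09 in the set and 1.81 in all genes for iPS SSEA1-, and 1.89 and 1.44 for iPS SSEA1+.

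In iPS SSEA1- libraries replicate 3 held the lowest value in 21 of the 37 genes, where it did so in 36.8% of all genes. Of the 17 genes that differed at least 4-fold, 14 were lowest in replicate 3. The same share among all genes that differed at least 4-fold was not computed. Over all tested genes, replicate 3 correlated with replicates 1 and 2 at 0.905 and 0.907, against 0.951 between replicates 1 and 2. The ratio of highest to lowest was 141.3 for Zim1, 94.0 for Asb4, 45.3 for Nnat, 13.4 for Igf2, 12.6 for H19, 11.8 for Peg3, 11.2 for Cdkn1c, 10.7 for Mest, 7.73 for Plagl1, 7.80 for Magel2, 6.16 for Airn, 6.09 for Gnas, 4.49 for Nap1l5 and 4.11 for Peg10, each lowest in replicate 3. The other genes were Phlda2 (4.45) and Ascl2 (4.6), both lowest in replicate 1 and highest in replicate 3, and Usp29 (6.02), lowest in replicate 2. The keratinocyte markers averaged 1.27 in replicate 3, against 3.96 and 4.56 in replicates 1 and 2, and the endoderm markers 2.24, against 3.63 and 3.88, on the log2(CPM + 1) scale, and the part of other cell types in the spread was not tested. In iPS SSEA1+ libraries, Igf2 differed by 9.91-fold, Slc22a18 by 6.93-fold and H19 by 4.35-fold, and all 3 were highest in replicate 1 and lowest in replicate 3. Asb4, the remaining gene of the 4 counted there, did not reach 5 CPM and was also highest in replicate 1. The fibroblast markers averaged 3.61 in that replicate 1, against 2.08 and 2.3 in replicates 2 and 3, and its part in that spread was not tested.

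**Figure D5:**
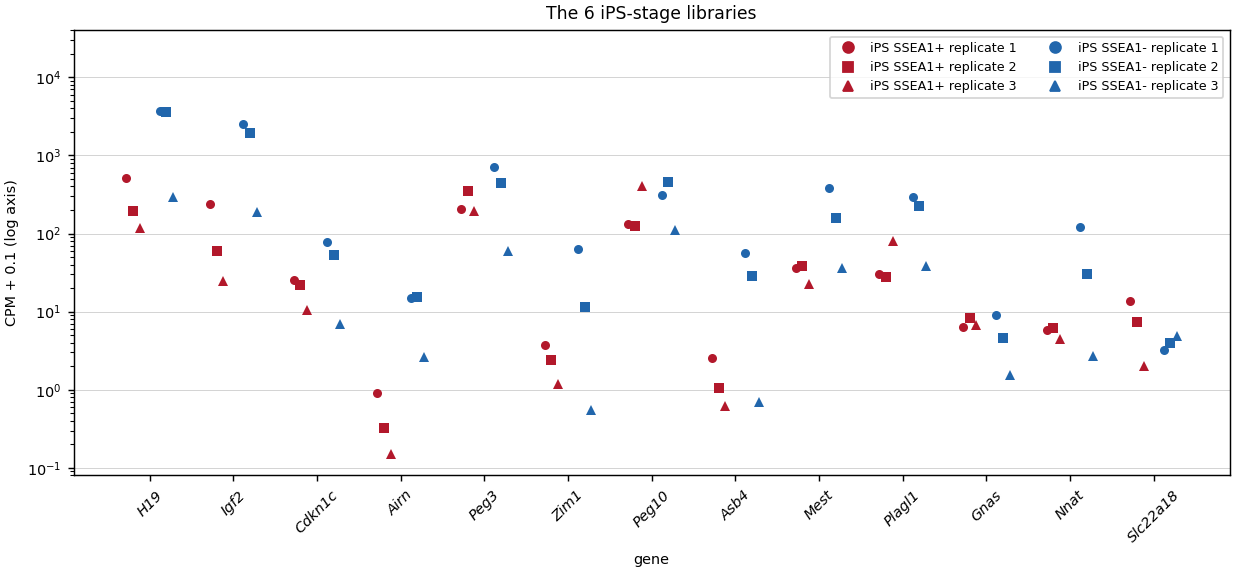
Level of 13 imprinted genes in each of the 6 iPS libraries, SSEA1+ left of SSEA1-, as CPM + 0.1 on a log axis with one symbol per replicate. H19, Igf2, Peg3, Nnat and Zim1 lie lower in SSEA1- replicate 3 than in SSEA1- replicates 1 and 2.

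Genes expressed from either parent's chromosome rose and fell. In iPS SSEA1+ cells against MEFs 6 of 20 paternally expressed genes rose and 6 fell, with a median change of 0.34, and 5 of 20 maternally expressed genes rose and 8 fell, with a median of -1.29. All tested genes had 27.9% called as higher and 22.5% as lower in that comparison, with a median of 0.22. In iPS SSEA1- cells 7 paternally expressed genes were called, all as higher, with a median of 0.76, and 5 maternally expressed genes rose and 4 fell, with a median of -0.40. Of all tested genes 19.1% were called as higher and 7.7% as lower there, with a median of 0.19. Without iPS SSEA1- replicate 3, 6 paternally expressed genes rose and 1 fell, with a median of 0.94, and 6 of 21 maternally expressed genes rose and 4 fell, with a median of -0.17. In that fit 27.9% of all genes were called, with a median of 0.17. Among the paternally expressed genes called in iPS SSEA1- cells, Magel2, Nnat, Zrsr1 and Sfmbt2 lost the call in some fits. Without iPS SSEA1- replicate 1 Magel2 was at 1.36 (edgeR adjusted p 0.36) and Nnat at 0.86 (0.38). Without MEF replicate 1 Zrsr1 was at 0.86 (0.018) and Sfmbt2 at 1.09 (0.065). Of the maternally expressed genes, Kcnq1 and Osbpl5 also lost the call in some fits. The difference between the parental classes was not tested.

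DNA methyltransferases and their partners keep imprints through cell division, and TET oxidases can erase them. Of 24 genes for DNA methylation and imprint maintenance, all tested, 11 rose and 1 fell in iPS SSEA1+ cells against MEFs, or 50%, against 50.5% of all tested genes, and the median change was 0.87, against 0.22 for all genes. Members that were not called include Zfp445 (0.07 ± 0.35, adjusted p 0.87), another zinc finger protein of imprints, Dnmt3a (-0.02 ± 0.28, adjusted p 0.95), a de novo methyltransferase, and Smchd1 (0.16 ± 0.22, adjusted p 0.52). Ctcf (0.80 ± 0.16) and Setdb1 (0.95 ± 0.14) stayed under 2-fold. Zfp57, whose protein binds the hexamer shown above, had 209.5, 274.4 and 405.9 CPM in iPS SSEA1+ libraries, against 25.0, 50.3 and 56.5 CPM in MEF libraries, a rise of 2.76 ± 0.35 (adjusted p 2.5e-07). All iPS SSEA1+ libraries lay above all MEF libraries. Its cofactor Trim28 rose by 1.68 ± 0.29 (adjusted p 2.2e-05), the maintenance methyltransferase Dnmt1 by 1.36 ± 0.29 (adjusted p 0.00024), its partner Uhrf1 by 2.22 ± 0.43 (adjusted p 8.1e-05), and the oxidase Tet1 by 5.53 ± 0.76 (adjusted p 7.1e-07). The oxidase Tet3 fell by 1.49 ± 0.23 (adjusted p 3.8e-06).

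Other imprinted genes, 33 listed, of which 26 were tested, were counted in the same way: 7 rose and 10 fell in iPS SSEA1+ cells against MEFs, or 65.4%, against 50.5% of all tested genes. Dcn, the matrix proteoglycan decorin, fell by 6.67 ± 1.01 (adjusted p 3e-06) and Pon2, a paraoxonase of the Peg10 and Sgce cluster, by 5.02 ± 0.44 (adjusted p 5.9e-10). Cobl, an actin nucleator next to Grb10, rose by 4.99 ± 0.51 (adjusted p 6.6e-09). At the iPS stage 4 of the 26 were higher and 11 lower in SSEA1+ than in SSEA1- cells, or 57.7%, against 37.4% of all genes. Without iPS SSEA1- replicate 3 these were 3 and 12 of 27, where 43.8% of all genes were called.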

How the data were processed

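Poly-A libraries were made per the labels' protocols with a kit that marks strand. Raw counts of reads per Ensembl gene were deposited by the authors, 1 table per library; per the submitters' processing notes STAR 2.3.0, Picard 1.100, HTSeq 0.6.0 and mm9 were used, and no annotation release was found in the labels. Judged by the deposited files' names, strand was ignored in the counting, so reads of a gene and its antisense partner cannot be separated, and reads over exons of both may stand among the ambiguous reads. GENCODE M21, on another build, gave names, chromosomes, exon lengths and exon overlaps only. Retrogenes with near copies (Mcts2, Zrsr1, Nap1l5, Peg12, Mkrn3) are uncertain. Summary lines without a gene were left out of all totals: of uniquely aligned reads, 4.42 to 15.51% fell in no gene and 2.41 to 3.15% were ambiguous.

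The labels gave groups and replicate numbers. One edgeR 4.0.16 quasi-likelihood model (R 4.3.3, glmQLFit robust, TMM, filterByExpr) of all 33 libraries, with 22 residual degrees of freedom, tested 17326 genes, with Benjamini-Hochberg adjustment over them. The SE is the log2 fold change over the square root of F. TMM left the median change of all genes at up to 0.261 against MEFs, and with DESeq2's size factors that of d3 SSEA1+ cells was -0.03 in place of 0.09, so changes are relative to the scaling. Libraries of a group correlated at 0.905 to 0.991 and differed beyond sampling noise (chi-square per degree of freedom at least 13.1), so none was treated as a repeat deposit. A count of 0 allows up to 3 counts, which is 0.072 to 0.336 CPM; intervals and floors hold counting error alone, because PCR reads that lack molecular identifiers are not independent.

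The genes and lists were chosen with earlier results of these data known. Values of every library are given for up to 6 called genes of largest change per comparison with MEFs or sort (higher group averaging 1 CPM or more, no overlap), for genes spread at least 4-fold within an iPS fraction with at least 5 CPM, and for H19, Igf2, Igf2r, Cdkn1c, Peg3, Mest, Peg10, Grb10 and Plagl1; other per-library values were added after they were seen. Equal replicate numbers were taken to pair libraries where deviations from the group means correlated above 0.1 in every pair: for the sort at d3 (0.35 to 0.47), d6 (0.3 to 0.56), d9 (0.18 to 0.31) and d12 (0.18 to 0.24), for d3, d6 and d12 SSEA1+ cells against MEFs, and for the steps to d6, d9 and d12. The main model holds no term for this pairing, and no fit paired libraries within a single comparison. Alternatives were DESeq2 1.42.0, DESeq2's size factors in edgeR, no filter, a fit on the compared groups alone, a replicate block shared by all groups, and leaving out each library.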

Additional observations from a re-analysis of the deposited data

Results flagged for a closer look

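The difference between the sorted fractions was itself compared between stages for 2 imprinted genes, Grb10 and H13, where the difference at the iPS stage minus that at d12 passed the edgeR quasi-likelihood test with a Benjamini-Hochberg adjusted p under 0.05 and a change of at least 2-fold. For Grb10, the adaptor protein gene, the log2 difference of SSEA1+ over SSEA1- cells was 0.36 at d3, 0.75 at d6, 0.54 at d9, -0.33 at d12 and -2.18 at the iPS stage. Its difference at the iPS stage minus that at d12 was -1.85 ± 0.35 on the log2 scale (SE, edgeR adjusted p = 0.0062). Without replicate 3 of the iPS SSEA1- libraries it was -2.14 (edgeR adjusted p = 0.00024), and with the compared groups fitted alone it was -1.83 (edgeR adjusted p = 0.17). That last fit called 0 of all 16686 genes it tested.

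For H13, the signal peptide peptidase gene, the log2 difference of SSEA1+ over SSEA1- cells was -0.14 at d3, -0.36 at d6, -0.58 at d9, -1.11 at d12 and -2.14 at the iPS stage. The iPS difference minus the d12 difference was -1.03 ± 0.27 (SE, edgeR adjusted p = 0.045), close to both thresholds. The change was just under 2-fold with DESeq2's size factors in edgeR (-0.99, edgeR adjusted p = 0.041) and in DESeq2 (-0.99, DESeq2 adjusted p = 0.0069). The adjusted p missed its threshold with no filter on low counts (-1.05, edgeR adjusted p = 0.075) and with the compared groups alone (-1.01, edgeR adjusted p = 0.28). The call was also lost without any 1 of 9 of the 12 libraries, with changes between -0.76 and -1.05.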

How the results depend on the processing

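Of 262 calls of an imprinted gene in a comparison, 214 were not lost under any alternative that kept all libraries. Under the fits that left out 1 library 173 were never lost, and 171 were lost in neither kind, and no call changed direction. A call that a fit did not test is not counted as lost, so 214 is more than the calls seen to hold in every such fit. With the compared groups alone 215 held and 29 were lost, and the rest were not tested. Calls were lost 30 times with no filter, 29 times with the compared groups alone, 11 times in DESeq2, 10 times with DESeq2's size factors in edgeR and 2 times with the replicate block.

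The count for the sort at d6, 7 in the edgeR fit of all libraries, was 11 with the replicate block (3 higher, 8 lower in SSEA1+ cells) and 11 with the compared groups alone. The block ended the calls of Mest in iPS SSEA1+ cells against MEFs (-1.58, edgeR adjusted p = 0.051) and Airn in iPS SSEA1+ against d12 SSEA1+ cells (-2.13, edgeR adjusted p = 0.051). It ended no other call and added 14, among them Asb4, Mest, Airn and Peg10 in the sort at d6. The step to d6 in SSEA1+ cells, with 2 calls, had 1 with no filter and 4 in DESeq2. The step to d9, with 1 call, had 0 with the compared groups alone. The difference in the sort between the iPS stage and d12, with 2 calls, had 1 with DESeq2's size factors, 1 with no filter and 0 with the compared groups alone. Of all genes these fits called 307, 223 and 0, where the edgeR fit of all libraries called 321. With the compared groups alone the step to d9 had 43 of all genes called, in place of 187. The cause of these changes was not tested.

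Leaving out 1 library gave 10 to 18 calls in d9 SSEA1- cells against MEFs, 2 to 5 for the sort at d3 and 3 to 8 at d6. For SSEA1+ cells it gave 0 to 2 calls for the step to d6, 0 to 1 to d9, 1 to 11 to d12 and 5 to 10 to the iPS stage, and 1 to 3 for the difference in the sort between the iPS stage and d12. Other counts stayed within 1.5 times of the count from all libraries. The number of all genes called moved in these fits as well. For the step to d12 it ran from 578 to 1899, where all libraries gave 1528.

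A count of 0 allows 0.072 to 0.336 CPM, so lower levels were not detectable at this depth. Calcr and Klf14 were under the filter, and Kcnq1, Usp29, Phlda2 and Ascl2 rest on few reads in MEFs.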
